A study of Drosophila melanogaster with 42 samples.

Results

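Chromosome 4 of Drosophila melanogaster, the small autosome that is packaged largely as heterochromatin, was examined as a set of genes in the male offspring of restrained and unrestrained fathers. A gene was taken as a member where the deposited expression tables place it on chromosome 4 of the dm3 genome build, and ribosomal protein genes, translation initiation factors and small nuclear or nucleolar RNAs were left out by their symbols. This gave 91 members, out of 94 chromosome 4 genes and 15061 genes in all. The 3 genes left out were RpS3A, eIF4G and snoRNA:CD-24. The members lie between 24053 and 1275485 on the chromosome. Of the 91, 77 are annotated as protein coding by RefSeq, 6 as antisense RNAs, 6 as long noncoding RNAs and 1 as a microRNA, and 1 had no match. Their listed loci are long, with a median of 10463 bp against 3389.5 to 4531 bp on the other arms. Further, 24 of them share 11 listed loci with another gene. The sources used here do not say whether strand was used in counting, so reads of overlapping members cannot be told apart with certainty.

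The RNA came from adult males whose mothers were w1118 flies in every cross, and whose fathers were w1118 flies or flies of the dATF-2KO line, a knockout of the transcription factor dATF-2 made by gene targeting. The fathers had been restrained in 3 sessions of 10 hours, or not at all. Below, restrained and unrestrained always refer to the fathers. Heads were parted from the other body parts, and each library was made from a pool of 50 flies, 5 to 6 days old by the sample labels and 6 to 7 days old by the series description. There are 5 libraries per group in heads with w1118 fathers, in heads with dATF-2KO fathers and in other body parts with dATF-2KO fathers. Other body parts with w1118 fathers were represented by 6 restrained and 6 unrestrained libraries, but the names of their 12 columns show no group, so only the authors' mean of the restrained group was used. The labels give the genotype of the father and not that of the offspring. By the study's methods, the whole dATF-2 gene is missing from the dATF-2KO line. A lower Atf-2 level in offspring of dATF-2KO fathers could therefore be looked for. Atf-2, the gene of dATF-2, was at 66.7 to 74.7 FPKM in the 10 head libraries labelled with w1118 fathers and at 69.1 to 75.02 FPKM in the 10 labelled with dATF-2KO fathers, so these levels do not separate the crosses and the genotype rests on the labels. The labels list the replicates as separate pools without naming the crosses behind them. P-values therefore cover the spread from pool to pool, which may be technical.

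Chromosome 4 carries genes embedded in repeats and marked by the heterochromatin protein HP1, and these genes are nonetheless transcribed. The protein POF, encoded by the gene Pof, binds along the whole chromosome and raises the output of its genes, while HP1 and the methyltransferases that recruit it act on the same genes, so that the chromosome is regulated as a unit. Many of its genes serve the nervous system, and it also holds developmental regulators such as eyeless, cubitus interruptus and pangolin. The factor dATF-2 is implicated in heterochromatin formation and in responses to stress. The question put to the data here was whether the genes of this heterochromatic chromosome shifted together in the offspring of restrained fathers, and with the genotype of the father.

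Expression is given as FPKM, fragments scaled to transcript length and to the size of the library. Read numbers of single libraries cannot be recovered from these values. The study's methods give only 1 approximate number of reads for every library. Summed FPKM in heads with w1118 fathers ran from 707383 to 724046 without restraint and from 722932 to 744159 with it. In heads with dATF-2KO fathers it ran from 681793 to 716243 and from 699795 to 724792. The median sum in other body parts with dATF-2KO fathers was 1040790 FPKM without and 1078070 FPKM with restraint. In each of these tables the median sum was thus higher with restraint. The 9 photoreceptor markers were all above 1 FPKM in heads, where they summed to between 34243 and 36975 FPKM, and they summed to between 17.5 and 19.7 FPKM in other body parts. The 7 testis markers measured summed to between 5211 and 6894 FPKM in other body parts and to at most 23.7 FPKM in heads. Replicate 3 of the restrained dATF-2KO group stood apart in both tissues by its yolk protein RNA, with Yp1 at 499 FPKM in heads and at 486 FPKM in other body parts. The highest Yp1 level in any other library of these tables was 12.8 FPKM. Since the samples are bulk tissue, fewer cells of a type and less RNA per cell cannot be told apart.

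Chromosome 4 genes were widely expressed, and their median level was above those of the other arms, most clearly in heads. A mean of at least 1 FPKM, the minimum used for tests, was reached by 86 members in heads with w1118 fathers, 87 in heads with dATF-2KO fathers and 82 in other body parts with dATF-2KO fathers. These are 94.5%, 95.6% and 90.1% of the 91 members, where 65.9%, 66.2% and 82.1% of all genes reached it. In heads, CG11231, CR43425, CR44031 and JYalpha lay below the minimum in both tables, and CR43437 lay below it with w1118 fathers alone. Among genes of other body parts, CG11231, CR43425, CR44023 and CR44031 lay below it together with mir-954, the kainate receptor gene CG9935 and the transcription factor genes ey, toy and fd102C. The median level of the tested members in unrestrained heads was 38.3 FPKM with w1118 fathers and 36.4 FPKM with dATF-2KO fathers, and the medians of the other arms lay between 16.1 and 17.0 FPKM. The median in other body parts with dATF-2KO fathers was 22.1 FPKM, against 14.5 to 19.5 FPKM on the other arms. The upper quartile there was 46.9 FPKM, against 35.5 FPKM on the X chromosome and 48.5 to 54.7 FPKM on 2L, 2R, 3L and 3R. Members made up 0.799% to 0.887% of summed FPKM in heads and 0.386% to 0.456% in other body parts.

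The tissue pattern leaned towards the head. In offspring of unrestrained dATF-2KO fathers, 40 of 88 members were at least 2-fold higher in heads, 8 were at least 2-fold higher in other body parts, and 40 lay within 2-fold. The median member was higher in heads by 0.94 on the log2(FPKM + 0.5) scale, whereas the medians of the other arms lay between -0.39 and 0.04. Members at least 2-fold higher in heads were 45.5% of the chromosome and 13.9% to 19.2% of the other arms. The tables of the tissues were scaled separately by the authors, so these are descriptions and no test was made. Setting the median of 2L, 2R, 3L and 3R to 0 raised the median member to 1.23 and the head-high members to 55.

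**Figure D1:**
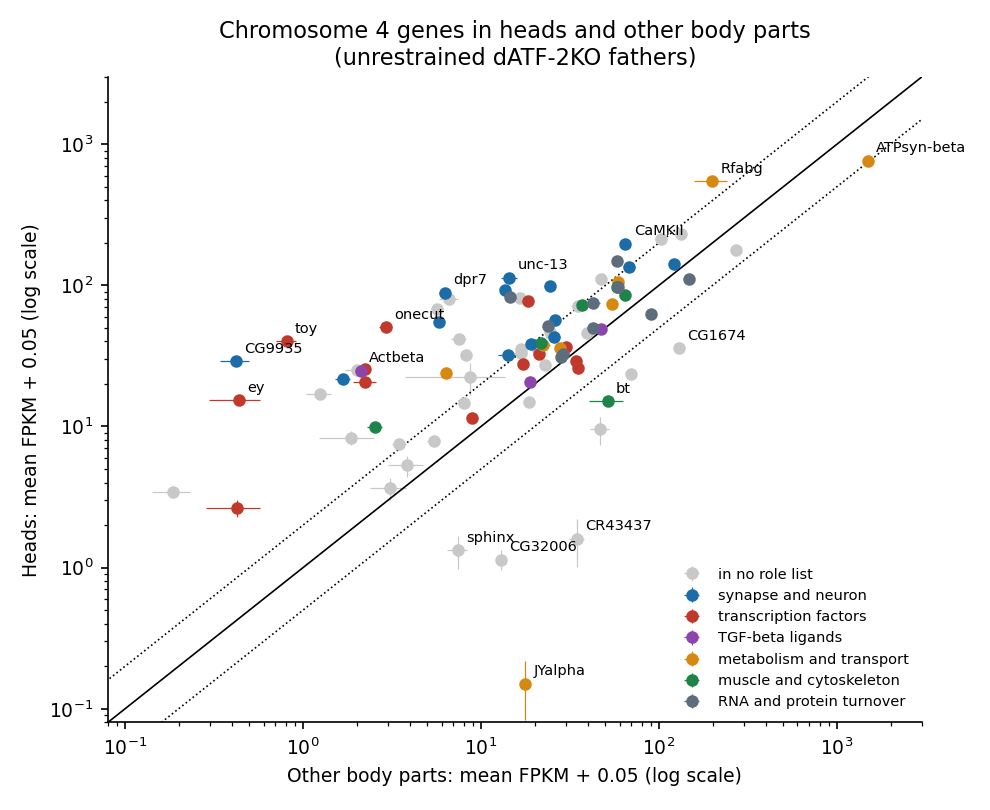
Mean FPKM of chromosome 4 genes in heads (vertical axis) and in other body parts (horizontal axis) of offspring of unrestrained dATF-2KO fathers. Both axes are on log scales after adding 0.05, with bars of 1 SD over 5 libraries and colours for the role lists. Most points lie above the solid line of equal level. The dotted lines mark 2-fold differences. mir-954, which rests on single libraries, is not drawn.

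Synaptic and neuronal members leaned towards the head. Of the 14, 10 were head-high and none was body-high, with a median difference of 1.81, close to the 1.83 of transcription factors. The kainate receptor gene CG9935 (named Ekar in RefSeq) had the largest difference of all members, with 28.8 ± 1.75 FPKM in heads and 0.369 ± 0.0789 FPKM in other body parts (SD, n = 5 each), a log2 difference of 5.08. In the 5 unrestrained head libraries CG9935 was measured at 26.8, 29.3, 27.5, 29.4 and 31.2 FPKM. The cell surface immunoglobulin gene dpr7 came next in this list, at 88.5 ± 1.64 FPKM in heads and 6.23 ± 0.444 FPKM in other body parts. The metabotropic glutamate receptor gene mGluRA (21.7 ± 0.988 FPKM in heads and 1.62 ± 0.167 FPKM in other body parts), the synaptic vesicle priming gene unc-13 (114 ± 5.56 FPKM in heads and 14.3 ± 1.46 FPKM in other body parts) and the calcium sensor gene Syt7 (55.0 ± 1.47 FPKM in heads and 5.74 ± 0.168 FPKM in other body parts) were head-high as well. The least polarised member of this list was PMCA, the plasma membrane calcium pump, at 141 ± 2.94 FPKM in heads and 121 ± 6.71 FPKM in other body parts. CaMKII, a kinase required for memory, was among the 10 highest members in heads, with 198 ± 8.33 FPKM in heads and 64.6 ± 2.95 FPKM in other body parts.

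Of the 13 members listed as transcription factors, 7 were head-high and 6 lay within 2-fold. The list is not complete, and NfI, named below, is not in it. The head-high genes included the Pax6 homologues toy and ey, which specify the eye. toy was measured at 38.3, 39.6, 40.7, 39.7 and 42.8 FPKM in unrestrained head libraries and at 0.758 ± 0.104 FPKM in other body parts, and ey at 13.7, 15.1, 16.3, 15.9 and 15.7 FPKM in heads and 0.384 ± 0.136 FPKM in other body parts. No head library overlapped a library of other body parts in either gene. The neuronal homeodomain gene onecut (50.2 ± 2.13 FPKM in heads and 2.86 ± 0.233 FPKM in other body parts) and zfh2 (20.5 ± 0.733 FPKM in heads and 2.19 ± 0.321 FPKM in other body parts) also leaned to the head, as did pan, the TCF factor of Wnt signalling, by 2.05. Of the others, pho, a Polycomb group DNA-binding protein, and Hcf, a chromatin cofactor, lay within 2-fold, at log2 differences of 0.28 and 0.62. Mitf, a regulator of lysosomal genes, stood at -0.44.

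The 3 TGF-beta ligands diverged. Actbeta, an activin made by neurons, had 24.8 ± 0.649 FPKM in heads and 2.06 ± 0.1002 FPKM in other body parts, a log2 difference of 3.31. The myostatin homologue myo had 49.1 ± 1.64 FPKM in heads and 46.9 ± 2.18 FPKM in other body parts, and mav had 20.7 ± 1.16 FPKM in heads and 18.8 ± 1.02 FPKM in other body parts, so neither was polarised. Metabolic members held the highest levels of the chromosome. ATPsyn-beta, a catalytic subunit of mitochondrial ATP synthase, was the highest member in either tissue, with 764 ± 13.9 FPKM in heads and 1493 ± 101 FPKM in other body parts. Rfabg, the precursor of the apolipophorins that carry lipid in the blood (apolpp in RefSeq), was the next highest in heads, with 545 ± 13.2 FPKM in heads and 199 ± 42.0 FPKM in other body parts. CG1970, a subunit of respiratory complex I (ND-49), stood at 179 ± 4.84 FPKM in heads and 272 ± 11.2 FPKM in other body parts.

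Body-high members were few. JYalpha, a sodium pump subunit needed for male fertility, was measured at 17.6, 16.9, 16.9, 18.8 and 18.0 FPKM in the unrestrained libraries of other body parts and at 0.1004 ± 0.0668 FPKM in heads. The noncoding RNA CR43437 had 1.56 ± 0.592 FPKM in heads and 34.5 ± 3.45 FPKM in other body parts, and CG32006 had 1.09 ± 0.187 FPKM in heads and 12.9 ± 0.708 FPKM in other body parts. bt, which encodes the giant muscle protein projectin, had 15.0 ± 0.966 FPKM in heads and 51.3 ± 11.1 FPKM in other body parts. CG1674 (log2 difference -1.84), CG33521 (-1.55), CR44027 (-2.25) and sphinx, a noncoding RNA studied for its part in courtship (-2.16), completed the 8. CR44027 is annotated as an antisense RNA, and CG33521 and sphinx share their listed loci with other genes. mir-954 was listed at 141 FPKM in 1 of the 5 unrestrained head libraries with dATF-2KO fathers and at 0 in the other 4, and RNA selected by its poly(A) tail is no sound measure of a microRNA locus.

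Locus length went with the tissue pattern on the other arms too. Among genes of the other arms, the head-high share rose with the length of the listed locus, from 8.65% of loci up to 2000 bp to 31.2% of loci over 20000 bp. Among members the shares were 44.4% (9 genes) and 76.9% (13 genes) in these classes. The share of head-high members was above that of the other arms in each of the 5 length classes. With w1118 fathers, where restrained heads could be set against the authors' mean of restrained other body parts, the median member was higher in heads by 1.29, and 53 of 88 members were head-high and 5 body-high. Against the same authors' mean, members in restrained other body parts with dATF-2KO fathers stood higher by a median of 0.46, as given below. The results share these values.

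No chromosome 4 gene passed the test for paternal restraint in any comparison. Restraint was tested with limma on log2(FPKM + 0.5) within each table. To be called, a gene needed an adjusted p under 0.05 (Benjamini-Hochberg, over all genes of its table) and a change of at least 1.4-fold. In heads with w1118 fathers 0 of 86 members were called, where 0.0504% of 9924 genes were called higher and 0.0403% lower. In heads with dATF-2KO fathers it was 0 of 87, where 0.0% of 9975 genes were called higher and 0.01% lower. For other body parts with dATF-2KO fathers it was 0 of 82, against 0.121% and 0.0243% of 12363 genes. On the adjusted p alone the count of members was 0 as well in each of the 3 comparisons. The shares of all genes passing it were 0.645% higher and 0.464% lower in heads with w1118 fathers, 0.0% and 0.0501% in heads with dATF-2KO fathers, and 0.121% and 0.0404% in other body parts. Changes were small, and the median standard error of a member's log2 change lay between 0.032 and 0.057 in the 3 tables.

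In heads with dATF-2KO fathers, most members lay on one side. The log2 change with restraint was above 0 in 75 of 87 members, and above 0 in 48.5% of all genes tested. The median log2 change of members was 0.065, while the medians of the other arms lay between -0.0068 and -0.00013. At an unadjusted p under 0.05, 32 members were higher and 0 lower, where 6.05% of all genes were higher and 4.39% lower. In 8 members every restrained library was above every unrestrained one, which was true of 1.43% of all genes. They were CG11155, CG1732, CG32017, CG32850, CaMKI, Eph, NfI and Zyx. In none was every restrained library below every unrestrained one, as in 0.792% of all genes. The smallest adjusted p among the members was 0.154 by limma.

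CG32850, a RING finger gene (Rnf11 in RefSeq) within the locus chr4:335549-379543 that it shares with PMCA, gave that smallest value. It was measured at 34.3, 35.3, 35.2, 36.2 and 36.6 FPKM in the 5 unrestrained libraries and at 37.1, 38.7, 41.0, 39.6 and 41.5 FPKM in the restrained ones. The 2 groups did not overlap, and the log2 change was 0.15 ± 0.032 (SE). CG11155, a kainate-type glutamate receptor subunit that shares chr4:1147228-1167155 with CG32017, was at 95.9, 97.4, 101, 98.6 and 105 FPKM without restraint and at 106, 107, 107, 113 and 113 FPKM with it. All restrained libraries lay above all unrestrained ones, at a log2 change of 0.13 ± 0.029 (SE) and an adjusted p of 0.167 by limma. Its neighbour CG32017 was at 76.8, 77.4, 81.1, 80.9 and 81.4 FPKM and at 83.7, 82.4, 85.8, 87.7 and 88.2 FPKM.

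CG1732, the GABA transporter gene (Gat), was at 79.4, 81.2, 81.1, 81.0 and 83.2 FPKM in unrestrained and at 85.1, 83.6, 87.6, 89.1 and 87.1 FPKM in restrained libraries, a log2 change of 0.090 ± 0.021. The groups were separated by 83.6 against 83.2 FPKM, the lowest restrained and the highest unrestrained level. The calmodulin-dependent kinase gene CaMKI was at 229, 225, 238, 227 and 238 FPKM and at 239, 246, 249.5, 246 and 255 FPKM, again without overlap, with a log2 change of 0.096 ± 0.023. For the axon guidance receptor gene Eph, the levels were 56.6, 55.3, 58.0, 54.7 and 59.1 FPKM without restraint and 59.5, 59.1, 59.6, 63.2 and 59.7 FPKM with it. Restrained replicate 4 was the highest of these, and the lowest restrained library lay just above the highest unrestrained one. NfI, a nuclear factor I transcription factor, had a log2 change of 0.11 ± 0.034, Zyx, which encodes the actin-bound protein zyxin, one of 0.11 ± 0.035, the calsyntenin gene Cals one of 0.11 ± 0.027 and the kinase gene Dyrk3 one of 0.10 ± 0.028, all with adjusted p-values of at least 0.206 by limma.

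By role, the upward lean in these heads was spread over the lists. The lists are broad. That of RNA and protein turnover holds the kinase genes Asator and Dyrk3, and that of muscle and cytoskeleton holds Slip1, which binds a potassium channel. Above 0 were 14 of 14 synaptic and neuronal members, 10 of 10 members of RNA and protein turnover, 6 of 6 of muscle and cytoskeleton, 3 of 3 TGF-beta ligands, 6 of 7 metabolic members and 9 of 13 transcription factors. Medians ran from 0.023 in transcription factors to 0.070 in RNA and protein turnover. Synaptic and neuronal members had a median of 0.064, and 7 of the 14 had an unadjusted p under 0.05. The 6 neuron markers measured had a median log2 change of 0.045 in the same libraries, with 4 of 6 above 0 and summed levels of 961 to 1044 FPKM without restraint and 992 to 1048 FPKM with it. Their part in the result was not tested. Members below 0 included Rfabg at -0.035. With each library left out in turn, the count above 0 was lowest at 69, for unrestrained replicate 1 left out, and highest at 80, for restrained replicate 3 left out, the library with yolk RNA.

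**Figure D2:**
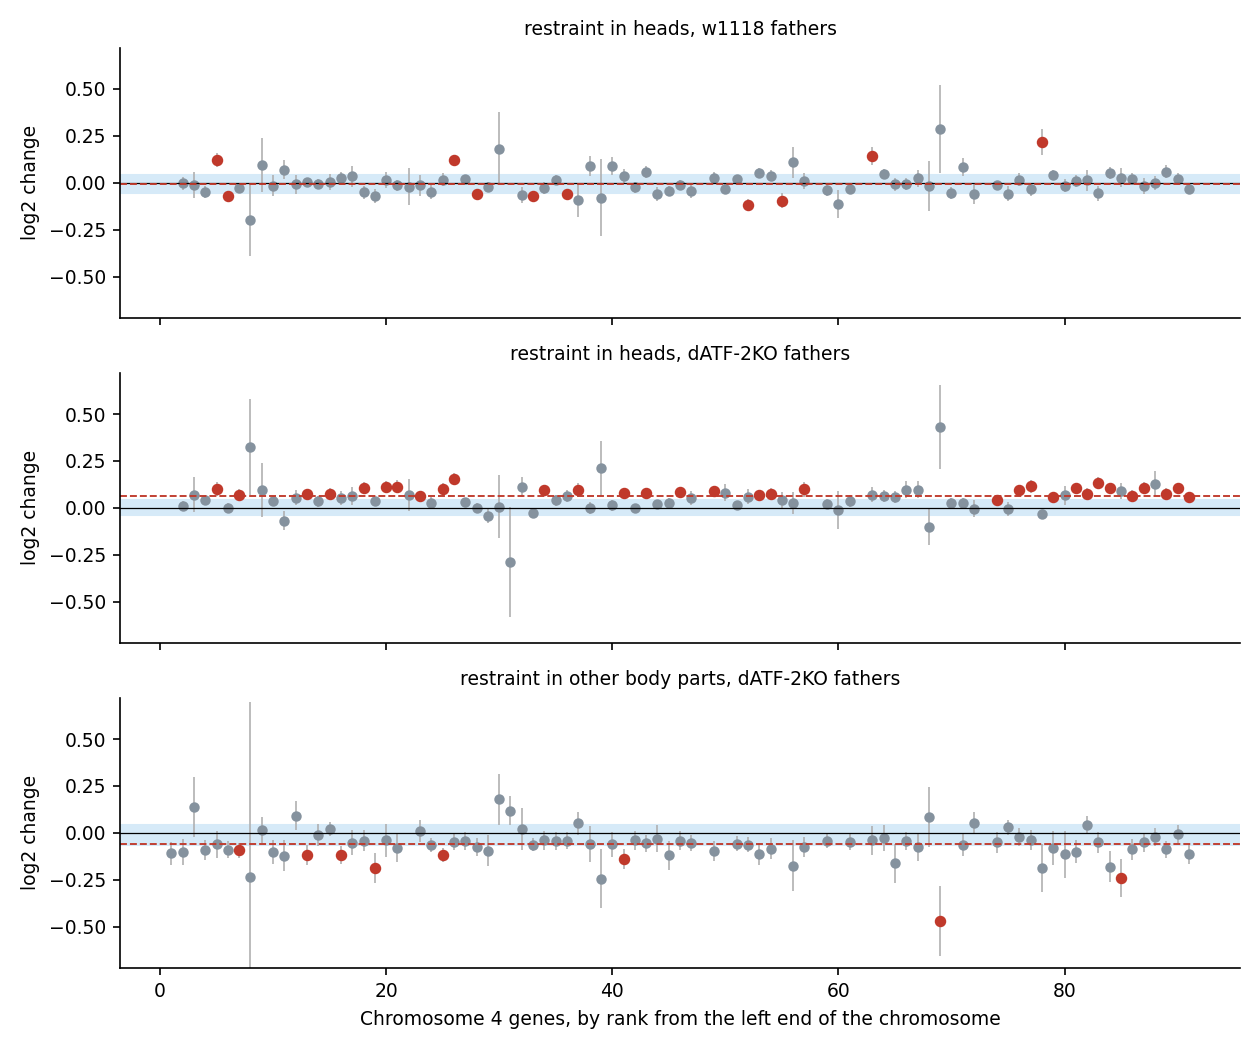
The log2 change with paternal restraint of each tested chromosome 4 gene (vertical axis, with its standard error), in the order of the genes from the left end of the chromosome, for the 3 comparisons. Red points have an unadjusted p under 0.05, the dashed line is the median of the chromosome, and the band runs from the lower to the upper quartile of all genes tested. Most members sit above 0 in heads with dATF-2KO fathers and most sit below 0 in other body parts. 1 error bar in the lowest panel, of CR43956, runs past the axis, and mir-954 is not drawn.

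In heads with w1118 fathers, members were found on both sides. The change was above 0 in 39 of 86 members and in 45.1% of all genes, and the median member stood at -0.0080 against -0.014 to 0.011 on the other arms. At an unadjusted p under 0.05, 4 members were higher and 6 lower, where 7.06% of all genes were higher and 8.69% lower. CG32850 again had the smallest p. It was at 34.1, 35.7, 35.6, 33.6 and 35.7 FPKM in unrestrained and 37.98, 36.4, 38.4, 38.4 and 38.7 FPKM in restrained libraries, without overlap, a log2 change of 0.12 ± 0.026 with an adjusted p of 0.0656 by limma. CG32850 thus had the same sign of change in heads of both crosses, below the 1.4-fold threshold in each. Over all members, the count above 0 ranged from 28 to 47 when single libraries were left out. The median turned positive without unrestrained replicate 2 (0.0077) or 3 (0.011) and without restrained replicate 1 (0.0033).

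Rfabg, the lipid carrier gene, was the other member with every restrained library above every unrestrained one, which held for 2.73% of all genes. Its levels were 436, 442, 343, 427 and 453 FPKM without restraint and 483, 478, 509, 460.4 and 499 FPKM with it. Unrestrained replicate 3 was far below the others, and the log2 change of 0.22 ± 0.070 was 0.14 without it. Slip1, Asator and Ank had every restrained library below every unrestrained one, as did 2.69% of all genes. Slip1, a protein that binds the Slowpoke potassium channel, was at 43.3, 46.1, 47.2, 43.0 and 43.4 FPKM and then at 40.9, 41.9, 41.5, 40.2 and 40.9 FPKM, a log2 change of -0.12 ± 0.029 with an adjusted p of 0.0946 by limma. Asator, a kinase of the tau tubulin kinase family, was at 85.8, 88.5, 88.8, 87.3 and 89.7 FPKM and at 84.8, 83.0, 84.9, 84.6 and 84.4 FPKM, so that the groups missed each other by less than 1 FPKM. Ank, an ankyrin that ties membrane proteins to the cytoskeleton, had a log2 change of -0.071 ± 0.021, and pan, which had overlapping groups, one of 0.12 ± 0.037.

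In heads with w1118 fathers, 4 of 13 transcription factors were above 0, where 45.1% of all genes were. At an unadjusted p under 0.05, ey, lgs and Hcf were lower and pan was higher. Synaptic and neuronal members had 6 of 14 above 0, and none had an unadjusted p under 0.05. The neuron markers had a median log2 change of 0.13 there, with 5 of 6 above 0, and the synaptic and neuronal members of the chromosome one of -0.0053. mir-954 was listed at 108 FPKM in 1 restrained library and at 0 in the other 9, so its fitted change rests on that library.

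The difference of the restraint change between the crosses was tested in heads as an interaction, in which a constant scaling of each table drops out. 0 of 87 members were called, where 0.0% of 9982 genes were called in either direction and 0.0801% and 0.0701% passed the adjusted p alone with a more positive and a more negative change, and the smallest adjusted p was 0.174 by limma. The change was more positive with dATF-2KO fathers in 73 of 87 members and in 52.8% of all genes. The median difference was 0.066 for members, -0.017 on the X chromosome and 0.0067 to 0.012 on 2L, 2R, 3L and 3R. At an unadjusted p under 0.05, 20 members had a more positive and 1 a more negative change, where 6.5% and 4.97% of all genes did. CG11155 had the smallest p among the members, at a difference of 0.19 ± 0.052 (SE), and was not called. With w1118 fathers its levels had been 112, 121, 129, 109.8 and 115 FPKM without restraint and 109.8, 111, 114, 115 and 114 FPKM with it, and the 2 groups overlapped.

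Slip1 (0.18 ± 0.049), Asator (0.13 ± 0.036), CG1674 (0.16 ± 0.048) and CaMKI (0.12 ± 0.039) came next among the positive differences. With dATF-2KO fathers Slip1 was at 37.0, 36.8, 39.1, 40.2 and 42.0 FPKM and at 41.6, 40.3, 39.9, 42.4 and 39.2 FPKM, groups that overlapped. Among differences at an unadjusted p under 0.05, the single negative one was that of Rfabg at -0.25 ± 0.077, or -0.18 without the low w1118 library. Rfabg with dATF-2KO fathers was at 550.4, 522, 549, 549 and 556 FPKM in unrestrained and 540.5, 511, 553, 538 and 519.6 FPKM in restrained libraries, and these overlapped.

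**Figure D3:**
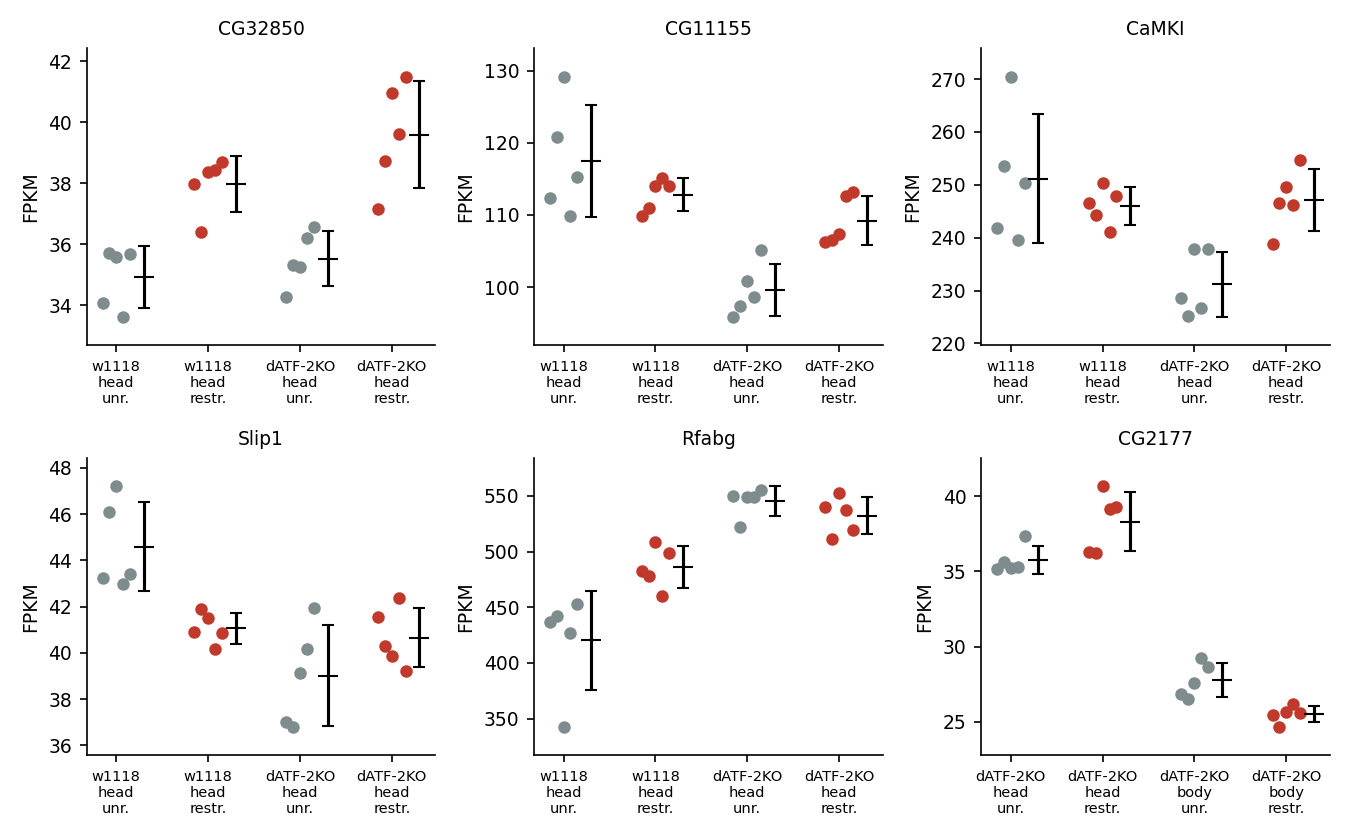
FPKM of 6 chromosome 4 genes in each library, with the mean and SD of the 5 libraries of a group in black, for unrestrained (unr., grey) and restrained (restr., red) fathers. The vertical axes do not start at 0. The red points of CG32850 lie above the grey ones in heads of both crosses and those of CG11155 and CaMKI with dATF-2KO fathers, and the red points of CG2177 lie below the grey ones in other body parts.

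Members leaned the other way in other body parts with dATF-2KO fathers. The change was above 0 in 13 of 82 members and in 42.1% of all genes, with a median of -0.060 against -0.019 to -0.0059 on the other arms. No member had every restrained library above every unrestrained one, as did 0.906% of all genes. At an unadjusted p under 0.05, 0 members were higher and 8 lower, where 3.07% of all genes were higher and 4.26% lower. Every one of the 10 transcription factors, 8 metabolic members and 3 TGF-beta ligands tested was below 0, as were 12 of 13 synaptic and neuronal members. The smallest adjusted p of a member was 0.419 by limma. Leaving out restrained replicate 3, with its yolk RNA, left 19 of 82 above 0 at a median of -0.045, where 47.9% of all genes were above 0 with a median of -0.0039. Between unrestrained and restrained libraries the 6 accessory gland markers summed to 10590 to 12516 and to 17595 to 19181 FPKM, although their median log2 change was -0.057 with 2 of 6 above 0. Among them, Acp98AB alone was at 6000 to 7196 FPKM without restraint and at 11789 to 12911 FPKM with it. The 7 muscle markers had a median log2 change of -0.079. Their part in the result was not tested.

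The zinc transporter gene CG2177 (Zip102B in RefSeq, chr4:331556-334713) was the single member whose restrained libraries all lay below the unrestrained ones, which held for 1.09% of all genes. It was at 26.9, 26.5, 27.6, 29.2 and 28.6 FPKM without restraint and at 25.4, 24.7, 25.6, 26.2 and 25.6 FPKM with it, a log2 change of -0.12 ± 0.037 (SE). Pur-alpha, which encodes a nucleic acid binding protein, was at 58.3, 54.0, 57.4, 60.7 and 59.3 FPKM and at 49.1, 55.4, 49.0, 57.5 and 52.1 FPKM, so that restrained libraries were lower but overlapped the others. The largest change was that of sphinx, at 7.08, 6.73, 6.35, 7.66 and 8.83 FPKM in unrestrained and 3.24, 4.11, 5.398, 6.36 and 7.49 FPKM in restrained libraries, groups that overlapped. Its log2 change was -0.47 ± 0.19. Kif3C, a kinesin gene, had a log2 change of -0.24 ± 0.10, CG32000, a P-type ATPase gene, one of -0.094 ± 0.039 and CG31999 one of -0.12 ± 0.050. dpr7 had one of -0.19. The muscle gene bt had an unrestrained library of 70.3 FPKM against 42.1 to 51.2 FPKM in the other 4, and 37.8 to 53.6 FPKM with restraint.

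Both tissues of the dATF-2KO cross could be read for 81 members. The change was above 0 in heads and below 0 in other body parts in 62 of them, on the same side in 15, and the other way around in 4. The tables hold different libraries, but heads and other body parts may come from the same flies, and the restrained replicate 3 of both tissues held yolk RNA. CG32850 was on the opposite side in other body parts, at -0.048 ± 0.044, as was CG11155 at -0.050 ± 0.055, while CG2177 had a change of 0.098 ± 0.035 in heads.

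To see whether the chromosome moved as a whole from library to library, a score was formed for each library. It is the median over members of the log2 level in that library relative to the same gene's mean over the table, minus the same median over 2L, 2R, 3L and 3R. No p-value is given for this score, since the members were chosen with results known. In heads with dATF-2KO fathers the scores of the 5 unrestrained libraries were -0.062, -0.045, -0.033, -0.022 and 0.017, and those of the 5 restrained libraries 0.015, 0.0065, 0.014, 0.054 and 0.042. Unrestrained replicate 5 lay above 3 of the restrained libraries, so the groups overlapped, and the means differed by 0.055. Scores built from the median level of members minus that of the 4 arms, as first planned, were higher by 0.092 on average after restraint, and 4 of 5 restrained libraries were above the highest unrestrained one.

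In heads with w1118 fathers the scores were -0.035, 0.036, 0.020, -0.058 and 0.0039 without restraint and -0.014, -0.00067, 0.034, -0.0047 and -0.012 with it. Here the means differed by 0.0071, and the restrained range lay inside the unrestrained one. The sign turned without unrestrained replicate 4 (-0.0057) or restrained replicate 3 (-0.0013), and the difference vanished without unrestrained replicate 1 (-3.5e-06). The planned score differed by 0.046, and by -0.0096 at a minimum of 5 FPKM, so its sign depended on the filter. For other body parts the scores were -0.038, -0.054, 0.107, 0.021 and 0.092 and 0.00068, -0.018, -0.029, 0.0020 and -0.043, a difference of -0.043. This difference rests largely on unrestrained replicates 3 and 5, the 2 highest libraries, and it was nearer 0, at -0.023 without replicate 3 and -0.026 without replicate 5. The scores of 2L, 2R, 3L and 3R stayed between -0.0089 and 0.0060 in every library, medians over far more genes. Those of the X chromosome ranged from -0.040 to 0.032, and in heads with w1118 fathers the X chromosome was higher after restraint by 0.026.

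**Figure D4:**
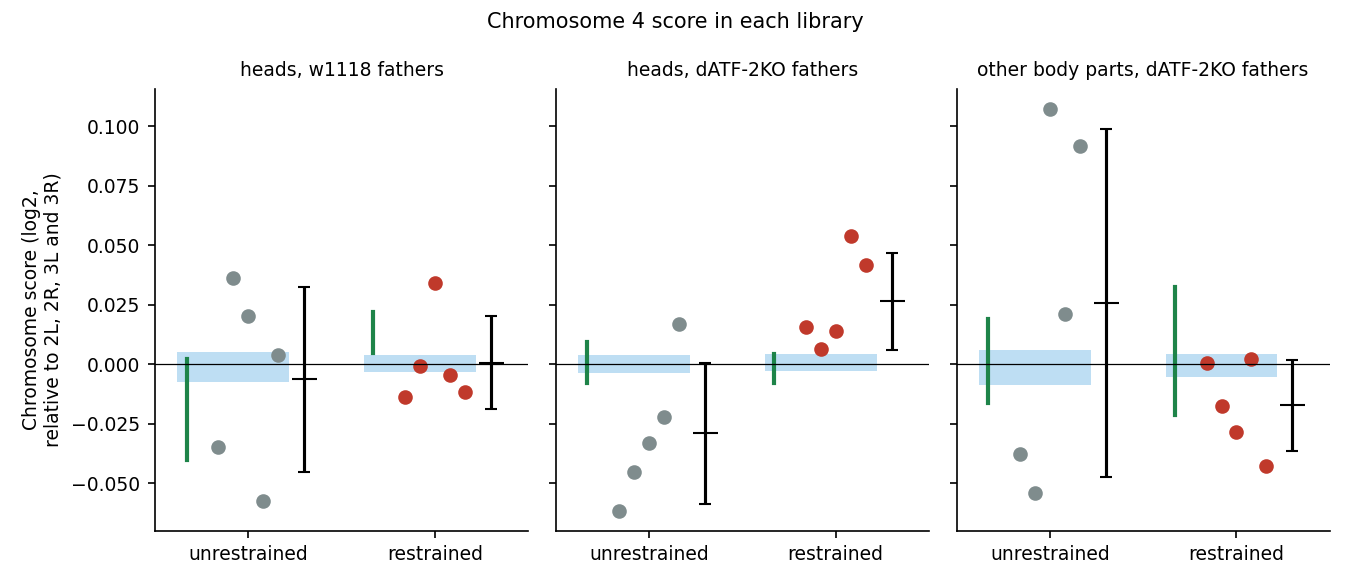
Chromosome 4 score of each library (points, in the order of the replicate numbers) on the log2 scale relative to 2L, 2R, 3L and 3R, with the mean and SD of the 5 libraries in black. Blue bands span the scores of 2L, 2R, 3L and 3R, and green bars those of the X chromosome. Points scatter more widely than the blue bands in all 6 groups, and restrained libraries lie higher in heads with dATF-2KO fathers.

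The lean was found along the whole chromosome. Split into 4 stretches from the left end, members with a change above 0 in heads with dATF-2KO fathers were 21 of 22, 18 of 23, 18 of 21 and 18 of 21. The counts in other body parts were 5 of 22, 4 of 23, 1 of 17 and 3 of 20. By locus length, medians of members in these heads were between 0.058 and 0.073 in the 4 classes above 2000 bp and 0.021 in the shortest, with 8 genes. Genes of the other arms had medians from -0.0076 to 0.011 over the same classes. Medians of members in other body parts were -0.077 to -0.046 above 2000 bp and 0.053 in the shortest class of 7 genes, where those of the other arms ran from 0.00075 down to -0.033 with rising length.

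The father's genotype was compared next, as a description. The crosses are in tables that the authors scaled separately, so genotype and table cannot be told apart. Differences are given relative to the median of 2L, 2R, 3L and 3R. In unrestrained heads, 86 members tested in both tables had a median difference, dATF-2KO minus w1118, of -0.058, and 31.4% lay above the reference. The X chromosome stood at 0.048, and genes of the other arms with loci over 20000 bp at 0.073, on the opposite side. In restrained heads the members' median was 0.0046 and 53.5% lay above the reference. The scores over the 20 head libraries ran from -0.078 to -0.0064 in the unrestrained dATF-2KO group, from -0.040 to 0.052 in the unrestrained w1118 group, from -0.018 to 0.037 in the restrained dATF-2KO group and from 0.00044 to 0.044 in the restrained w1118 group. The means of these scores differed between the crosses by -0.060 in unrestrained and -0.0036 in restrained heads, and those of the planned measure by -0.025 and 0.014. On the gene-centred score the unrestrained dATF-2KO group held the lowest libraries, and all 4 groups overlapped with at least 1 other.

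The crosses, in other body parts of offspring of restrained fathers, stood much further apart. Only restrained groups could be compared there. The study reported many more genes changed by restraint in other body parts with w1118 fathers than with dATF-2KO fathers. The father's genotype, the response to restraint and the table therefore cannot be told apart in this difference. Against the authors' mean with w1118 fathers, the mean with dATF-2KO fathers was higher by a median of 0.46 over 79 members, relative to the same 4 arms, and 72 of the 79 lay above the reference. The medians of the other arms were between -0.0081 and 0.013. Compared were the members at 1 FPKM or more in both. In 64 of the 79 every one of the 5 dATF-2KO libraries was above the authors' mean, and in 6 every one was below it. Among genes of the other arms, 31.5% had every library above and 35.3% every library below. Leaving out restrained replicate 3, with its yolk RNA, kept the median at 0.46 and gave 67 members with all 4 libraries above. No spread between libraries can be given for the w1118 group.

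The receptor gene CG11155 was at 21.7 to 25.0 FPKM in the 5 libraries with dATF-2KO fathers against an authors' mean of 9.80 FPKM with w1118 fathers, a difference of 1.23. unc-13 was at 13.2 to 15.5 FPKM in the 5 libraries with dATF-2KO fathers against an authors' mean of 6.56 FPKM with w1118 fathers (1.06), and the muscle gene bt at 37.8 to 53.6 FPKM in the 5 libraries with dATF-2KO fathers against an authors' mean of 23.3 FPKM with w1118 fathers (0.95). In each of these the lowest library was well above the mean of the other cross. CaMKII had 58.6 to 67.2 FPKM in the 5 libraries with dATF-2KO fathers against an authors' mean of 40.5 FPKM with w1118 fathers (0.66), Zyx 0.91 and Dyrk3 0.82. The 6 members with every library below the authors' mean were CR43957, an antisense RNA (-0.82), CG1970 (-0.27), CG11077 (-0.26), Sox102F, a transcription factor gene (-0.16), CG11076 (-0.13) and Arf102F (-0.035). ATPsyn-beta had 1307 to 1538 FPKM in the 5 libraries with dATF-2KO fathers against an authors' mean of 1372 FPKM with w1118 fathers, so the authors' mean lay inside the range of the libraries, as it did for Rad23, a shuttle factor of the proteasome, and for Rfabg. CG1970 had 241 to 284 FPKM in the 5 libraries with dATF-2KO fathers against an authors' mean of 322 FPKM with w1118 fathers, a difference of -0.27 in the opposite direction.

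**Figure D5:**
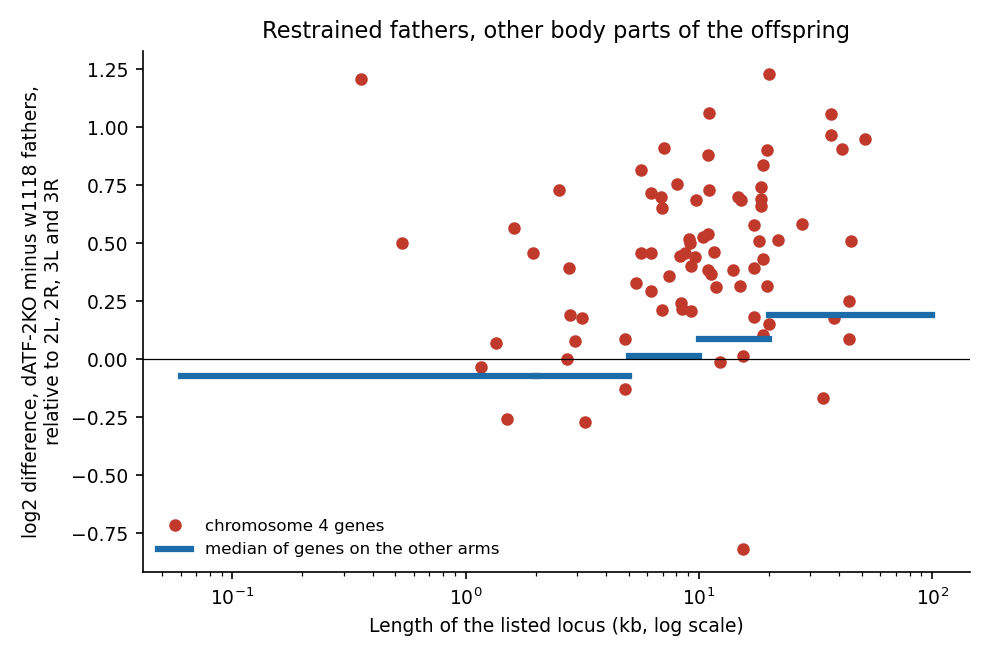
The log2 difference in other body parts of offspring of restrained fathers, dATF-2KO minus w1118 fathers, relative to the median of 2L, 2R, 3L and 3R (vertical axis), against the length of the listed locus in kb on a log scale (horizontal axis). Red points are 79 chromosome 4 genes and blue lines the medians of genes on the other arms in 5 length classes, from -0.073 for loci up to 2000 bp to 0.19 for loci over 20000 bp. Most red points above 5 kb lie above the blue lines.

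Every role list was on the same side, with 12 of 12 synaptic and neuronal members, 6 of 6 of muscle and cytoskeleton, 9 of 10 transcription factors and 9 of 10 members of RNA and protein turnover above the reference. The difference was present in members of each tissue class, with medians of 0.51 in 31 head-high, 0.36 in 40 intermediate and 0.76 in 8 body-high members. Genes of the other arms in these classes had medians of 0.075, -0.091 and 0.20. Within head-high genes with loci over 5000 bp, 28 members had a median of 0.51 and 975 genes of the other arms one of 0.15. The tables also differed in markers of cell types. The 7 testis markers were higher with dATF-2KO fathers by a median of 1.70, while the 5 neuron markers measured stood at -0.070, the 7 muscle markers at 0.18 and the 6 accessory gland markers at -0.21. The 3 fat body markers compared stood at -0.72, or at -1.84 without restrained replicate 3, and the 2 photoreceptor markers compared at -0.97. Single markers went both ways, from -1.86 to 1.78 in fat body (all 5 libraries) and from -2.11 to 0.18 in photoreceptors. Yp1 is in the fat body list and in the egg and yolk list. The 6 egg and yolk markers stood at 1.85 with all 5 libraries and at -4.15 without restrained replicate 3, so the authors' mean of the other cross held such RNA as well. Their part in the result was not tested.

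Genes elsewhere that act on chromosome 4 did not pass the test for restraint. Of 8 listed regulators, among them Pof and the methyltransferase gene egg, 0 passed the adjusted p in any of the 4 comparisons by limma. At an unadjusted p under 0.05 there was 1, Su(var)3-7, an HP1 partner, in heads with w1118 fathers at a log2 change of -0.12. Pof was looked at further after its values were seen. It was at 8.31 to 9.17 FPKM in unrestrained and 6.94 to 9.18 FPKM in restrained heads with dATF-2KO fathers, groups that overlapped. Its range in other body parts of the same crosses was 250.4 to 312 FPKM without and 265 to 314 FPKM with restraint. Pof was thus higher in other body parts than in heads, which were scaled separately. Its relation to the tissue pattern of chromosome 4 was not tested.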

How the data were processed

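Per the labels and the study's methods, poly(A)+ RNA of 42 pools of 50 flies was sequenced, and the sources name different library kits. The authors aligned reads with TopHat2 to the dm3 build and deposited FPKM values from Cufflinks and Cuffnorm, scaled within each of 4 tables. Tool versions, the annotation and read filters were not given in the sources. The tables also hold ratios, p-values and q-values of the authors' own comparisons, which were not used. For other body parts with w1118 fathers, 12 library columns match no sample or group and were not used, so the planned test of restraint there was not run, and only the authors' mean of the restrained group was read.

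Groups came from the labels. For the remaining 3 tables (30 libraries), limma 3.58.1 in R 4.3.3 was run on log2(FPKM + 0.5), a scale that understates changes of low genes. It used a mean-variance trend and Benjamini-Hochberg adjustment per table, and genes needed a mean FPKM of 1 or more. The thresholds were an adjusted p of 0.05 and 1.4-fold. The script was tested on simulated data. The read numbers of single libraries are unknown, so no counting error is given. Symbols and gene classes came from RefSeq (90 of 91 members matched). Coordinates were taken from the tables and start from 1. No sequence is shown, and 1 member is counted but not reported by name here.

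The members, the lists of roles, regulators and markers, and the tests were chosen with earlier results of these data known. Genes are named where they had one of the 6 smallest p-values of a comparison, one of the 10 highest levels or 8 largest tissue differences, or a high level in a role list, and members that did not overlap between groups are named as well. The alternatives were other pseudocounts, filters and scalings, a robust fit, a replicate block, other reference genes and each library left out in turn.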

Additional observations from a re-analysis of the deposited data

Results flagged for a closer look

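Among 100 groups of 5 values examined (members shown with every library, and the chromosome scores), 7 had 1 library far from the other 4, where chance gives about 1 in 20. In heads with w1118 fathers, Rfabg was at 343 FPKM in unrestrained replicate 3 and at 427 to 453 FPKM in the others. NfI was at 41.6 FPKM in restrained replicate 3, against 39.8 to 40.3 FPKM, and Asator at 83.0 FPKM in restrained replicate 2, against 84.4 to 84.9 FPKM. The chromosome score of restrained replicate 3 in this table was 0.034, where the other 4 lay between -0.014 and -0.00067. In heads with dATF-2KO fathers, Rfabg was at 522 FPKM in unrestrained replicate 2, against 549 to 556 FPKM, and Eph at 63.2 FPKM in restrained replicate 4, against 59.1 to 59.7 FPKM. In other body parts, CG1674 was at 108 FPKM in restrained replicate 3, the library with yolk RNA, and at 128 to 132 FPKM in the others.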

How the results depend on the processing

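The count of members called stayed at 0 in all 4 comparisons under the 9 alternatives of scale, filter and fit and with each library left out. Over these 9 alternatives the median log2 change of members ranged from -0.0086 to -0.00099 in heads with w1118 fathers, from 0.054 to 0.067 in heads with dATF-2KO fathers and from -0.063 to -0.043 in other body parts, and the median difference between crosses from 0.056 to 0.067. Leaving out a library gave -0.017 to 0.011, 0.051 to 0.074, -0.078 to -0.045 and 0.051 to 0.081. Relative to the median of all genes, leaving out a library gave -0.0082 to 0.020, 0.055 to 0.076, -0.068 to -0.025 and 0.043 to 0.075. None of the 24 results on single members changed direction or call, although Kif3C has no value at a minimum of 5 FPKM. Correlations of same-numbered unrestrained and restrained libraries of a table lay between -0.12 and 0.14. No pairing by number was thus seen within a table, but low correlations cannot exclude one. Pairing across tissues was not checked. The replicate block left the count at 0.

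The planned score of the whole chromosome moved most. In heads with w1118 fathers its restraint difference of 0.046 (0.034 to 0.059 with a library left out) became -0.0096 at a minimum of 5 FPKM and, in forms chosen after seeing the data, 0.0071 when centred by gene, 0.0076 for members alone in their locus and 0.0064 for protein-coding members. In heads with dATF-2KO fathers 0.092 (0.083 to 0.11) became 0.045 with means over genes, 0.055 when centred by gene, 0.052 for members alone in their locus and 0.055 for protein-coding members. In other body parts -0.063 ranged from -0.085 to -0.040 with a library left out. The difference by the father's genotype was -0.025 in unrestrained heads (-0.043 to -0.011) and 0.014 in restrained heads (0.0083 to 0.021), and with the X chromosome as reference -0.085 and -0.0088. The median tissue difference of 0.94 became 0.9997 in restrained libraries, 1.23 after centring on 2L, 2R, 3L and 3R and 1.29 with w1118 fathers, where 5 members were body-high. The causes were not tested. FPKM without counts limits what can be said of low members such as sphinx and the antisense RNAs. The planned search for promoter motifs and the restraint test in other body parts with w1118 fathers were not run.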
